A study of Mus musculus with 8 samples.

Results

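Th1 and Th2 cells, helper T cells made in culture, were compared on 4 of the 8 mouse expression arrays of a study of T follicular helper cells. The 4 arrays were chosen by their labelled cell type, 2 of Th1 cells and 2 of Th2 cells. Another 2 arrays, of Th17 cells made in the same way, entered the test only to estimate the spread between arrays of a group. All these cultures began with naive CD4 T cells from spleens and lymph nodes of OT-II mice of 6 to 8 weeks on the C57BL/6 background, whose T cells carry a transgenic receptor for an ovalbumin peptide. The cells were stimulated with that peptide and antigen-presenting cells for 5 days in RPMI-1640 medium with 10% fetal serum. Th1 cultures received IL-12 at 10 ng/ml and an antibody against IL-4, and Th2 cultures received IL-4 at 10 ng/ml and an antibody against IFN-gamma, each antibody at 10 mg/ml as the labels write it. Th17 cultures received IL-6 at 20 ng/ml, TGF-beta at 5 mg/ml as written, and both antibodies at 10 mg/ml. The labels name no step that removed the antigen-presenting cells before RNA was taken, and no culture without polarising cytokines was analysed here. They also do not say whether the 2 arrays of a group came from separate cultures or mice, so p-values measure only the spread between these samples; transcripts tied to sex, given below, differed between the 2 Th1 and between the 2 Th2 arrays, which thus did not hold repeats of 1 RNA sample.

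Th1 cells fight microbes that live inside cells and secrete IFN-gamma, the product of Ifng. IL-12 acts on them through the receptor chain IL12RB2 and the factor STAT4, and T-bet, encoded by Tbx21, drives the Th1 programme. Th2 cells direct responses to worms and allergens and secrete IL-4, IL-5 and IL-13, and IL-4 acts on them through STAT6 and the factor GATA3.

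Levels are given as log2 signals, so a difference of 1 is a factor of 2, and the number of arrays is what limits the precision. A gene was tested if it lay above the median of all values, 3.06, on at least 2 of the 6 cultured arrays; 10635 of 18193 genes were. Signals under 3.06 are called low here, and whether they lay above background was not analysed. The 2 Th1 arrays differed by more than 1 log2 unit at 1425 tested genes, the 2 Th2 arrays at 681 and the 2 Th17 arrays at 1324. Th2 replicate 1 carried more signal of macrophage, neutrophil, mast cell and platelet markers than Th2 replicate 2, as described with the marker lists. The 2 arrays of the Th1 and of the Th2 group also differed in transcripts tied to sex. Xist, made in female cells, gave 2.79 and 11.09 on the Th1 arrays and 5.48 and 11.92 on the Th2 arrays, so it was high on replicate 2 of both groups. Eif2s3y, a gene of the Y chromosome, gave 10.98 and 9.88 on the Th1 arrays and 11.10 and 2.42 on the Th2 arrays, so both transcripts were high on Th1 replicate 2. Both Th17 arrays were low in Xist and high in Eif2s3y. The part of these differences in the results was not tested.

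Genes higher in Th2 cultures outnumbered those higher in Th1 cultures with all arrays in the fit. With limma on the 6 cultured arrays, 5 genes were higher in Th1 cells (0.047% of those tested) and 26 were higher in Th2 cells (0.244%), 31 in all (0.291%), at a Benjamini-Hochberg adjusted p under 0.05 and a difference of at least 1. At an unadjusted p under 0.05 there were 532 genes (5%) on the Th1 side and 680 (6.39%) on the Th2 side. Counting genes whose 2 groups of arrays did not overlap and whose means differed by at least 1 gave 398 higher in Th1 (3.74%) and 607 higher in Th2 (5.71%); counts of genes without overlap below use this rule. The longer Th2 side was clearest among large differences of this kind: 72 genes were higher in Th2 cells by at least 4 and 10 were higher in Th1 cells by as much. The 72 include markers of B cells and macrophages, which are named below. The median difference over all tested genes was 0.02. For the gene lists below, a pair of counts marked unadjusted gives the genes at an unadjusted p under 0.05, Th1 side first.

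These calls and the lead of the Th2 side depended on single arrays. No call held when each of the 6 arrays was left out in turn: without Th1 replicate 1, limma called 0 genes in either direction (614 and 649 at an unadjusted p under 0.05), and without Th2 replicate 1 it called 0 in Th1 (280 unadjusted) and 27 in Th2 cells, of which 13 were among the 26. Without Th1 replicate 2, 2 genes were called in each direction, and at an unadjusted p under 0.05 the Th1 side was then the longer one, with 683 genes against 652. Without Th2 replicate 2 limma called 2 in Th1 and 53 in Th2 cells (257 and 535 unadjusted). Leaving out either Th17 array gave 1 and 7 genes. On the 4 Th1 and Th2 arrays alone, limma called 0 genes in either direction (559 and 681 unadjusted). Each of the 31 genes kept its direction and a difference of at least 1 in every one of these fits. That gives no further support, because the 31 were called in these same data by a test that favours close arrays within a group. Leaving out Th17 arrays cannot change the difference between Th1 and Th2 arrays at all.

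**Figure D1:**
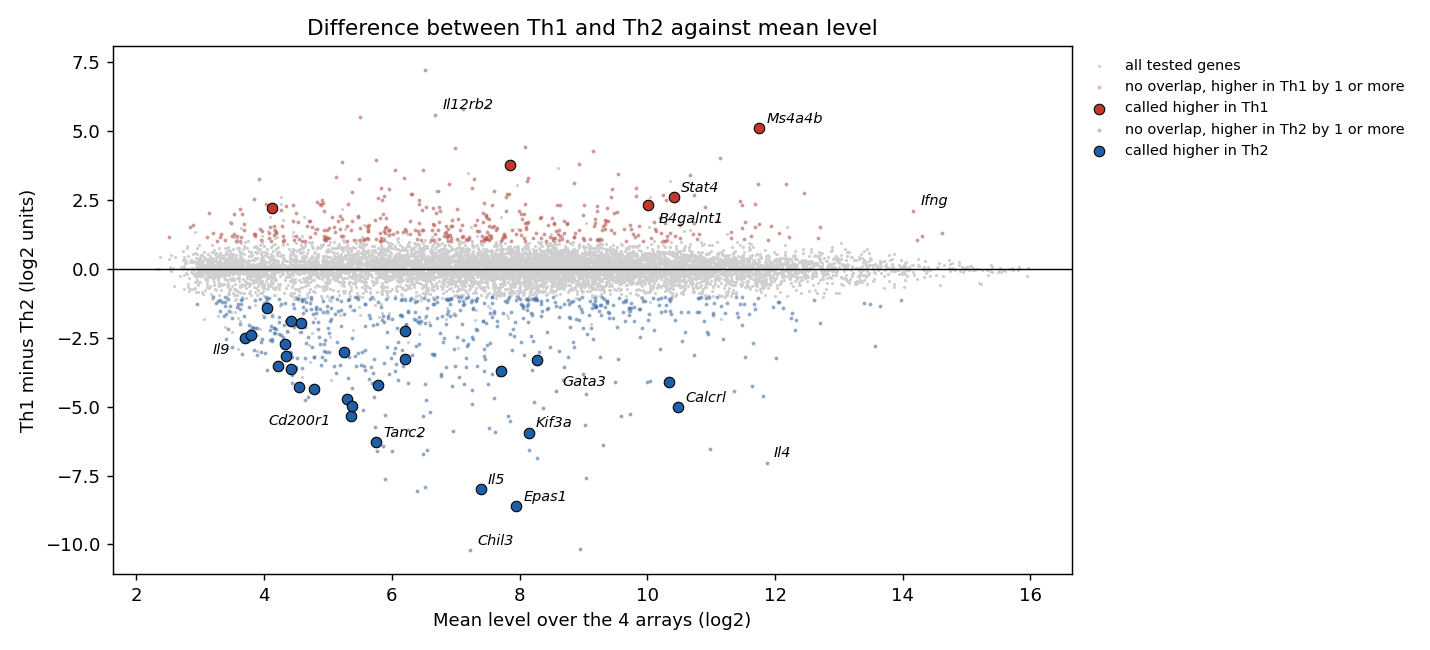
Th1 minus Th2 difference in log2 units (vertical axis) against the mean level over the 4 arrays (horizontal axis, log2), with 1 point for each tested gene. Pale red and blue mark genes without overlap that were higher in Th1 and Th2 cells, and outlined points the 31 genes called by limma, from -8.60 for Epas1 to 5.11 for Ms4a4b.

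Of the 24 gene lists examined, the Th2 cytokines had the largest median difference with all arrays and the filter given. Without Th2 replicate 2 their median of Th1 minus Th2 was -4.24, and genes that macrophages make under IL-4 were further apart at -5.13; the stricter filter gave -4.53 and -6.59. Of 10 tested cytokines, Il5 and Il9 were called higher in Th2 cells, 8 were higher in Th2 cells without overlap and 1 in Th1 cells, and the median difference was 4.38 in favour of Th2 cells, against 0.02 in favour of Th1 cells over all tested genes. Il5, the growth factor of eosinophils, gave 2.76 and 4.02 in Th1 cells against 11.51 and 11.28 in Th2 cells. Both Th1 arrays were low or near the filter value and the groups were far apart. Il5 rose by 8.00 log2 units (SE 0.46, adjusted p = 0.0156) in Th2 over Th1 cells, and the Th17 arrays were at 2.76 and 2.72. In these bulk samples, fewer cells of a type and less RNA per cell cannot be told apart.

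Il9, a growth factor of mast cells, gave 2.44 and 2.46 in Th1 and 4.90 and 4.99 in Th2 cultures. The arrays of each group lay close together and the groups did not overlap, although the Th2 level was modest. Il9 rose by 2.50 log2 units (SE 0.08, adjusted p = 0.00480) in Th2 cells. It passed the filter through the Th2 arrays alone: the Th1 arrays and the Th17 arrays, at 2.48 and 2.43, were low, so the difference is one of signals and no Th1 level above background was shown. In all, 10 of the 26 genes called in Th2 cells had both Th1 arrays low, and 9 of these had both Th17 arrays low as well; 1 of the 5 genes called in Th1 cells was low on both Th2 arrays.

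Il4, the cytokine that defines the lineage, gave 6.11 and 10.60 on the Th1 arrays and 15.20 and 15.57 on the Th2 arrays. The groups did not overlap, but the Th1 arrays stood far apart from each other, Th1 replicate 2 being the higher. The difference of 7.03 log2 units (SE 1.62, adjusted p = 0.265) did not pass the test. Il13, which acts on airway epithelium and mucus, gave 5.49 and 8.07 in Th1 cells against 11.39 and 11.22 in Th2 cells, with the same order of the Th1 arrays and a difference of 4.53 log2 units (SE 1.45, adjusted p = 0.378). Il24, a cytokine of the IL-10 family, gave 9.35 and 6.07 in Th1 and 13.93 and 14.57 in Th2 cultures, where Th1 replicate 1 was the higher of its group and the groups did not overlap. Il10, a cytokine that damps inflammation, gave 12.24 and 6.80 on the Th1 arrays and 13.57 and 13.95 on the Th2 arrays: Th1 replicate 1 came near the Th2 arrays and replicate 2 did not. The difference for Il24 was 6.54 log2 units (SE 2.64, adjusted p = 0.454) and that for Il10 4.24 log2 units (SE 2.00, adjusted p = 0.517). Neither passed. Il31, a cytokine linked to itch, gave 4.11 and 7.46 in Th1 cells against 8.53 and 8.63 in Th2 cells (adjusted p = 0.449). Ecm1, a secreted matrix protein, gave 10.64 and 8.39 in Th1 and 13.94 and 14.30 in Th2 cultures (adjusted p = 0.159). Both had Th2 arrays above both Th1 arrays. Il3, which both helper types can make, was the member without overlap on the Th1 side, with its nearest arrays equal to 2 decimals, at 14.55 and 14.94 on the Th1 arrays and 12.85 and 14.55 on the Th2 arrays, and its difference of 1.05 log2 units (SE 1.15, adjusted p = 0.789) was small beside its spread. Tnfsf11, the osteoclast factor RANKL, gave 10.48 and 11.31 in Th1 cells against 10.61 and 10.57 in Th2 cells, with a Th1 array below both Th2 arrays. Il25 was low on all 4 arrays and was not tested.

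**Figure D2:**
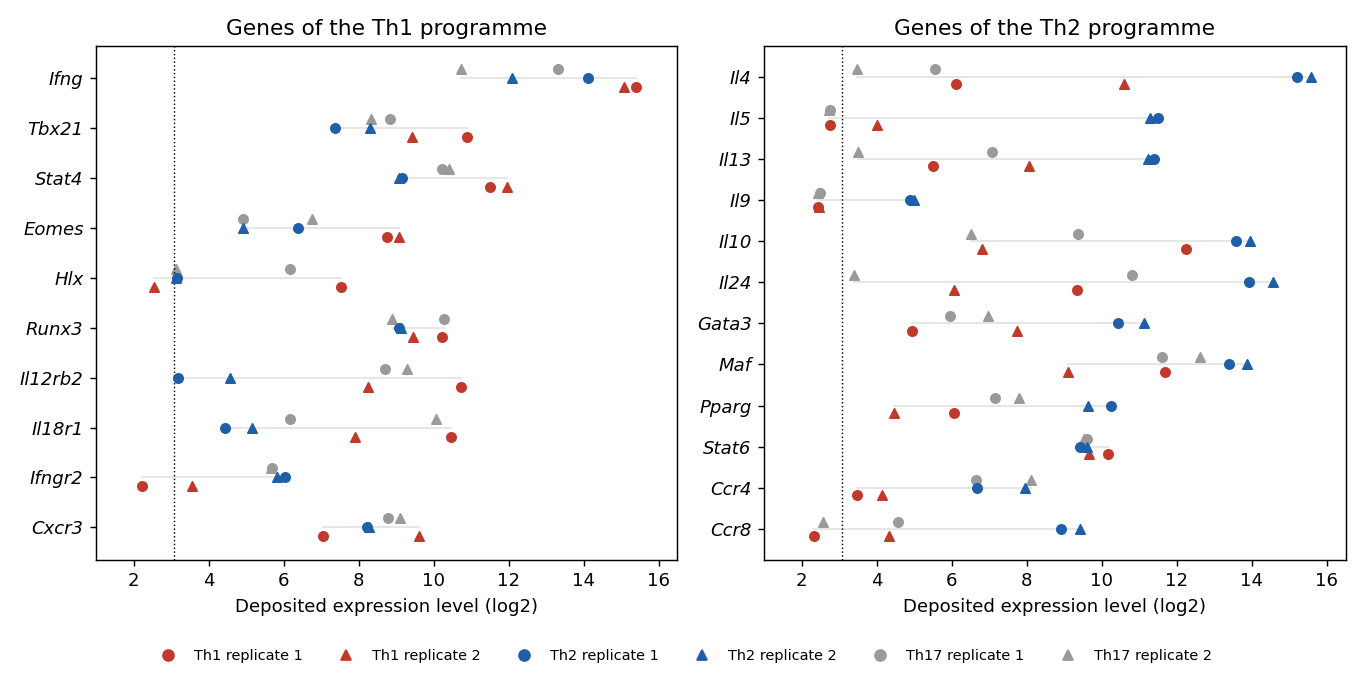
Log2 signal of Th1 and Th2 lineage genes on each cultured array, red for Th1, blue for Th2 and grey for Th17, with circles for replicate 1 and triangles for replicate 2; the dotted line marks the filter value, 3.06. Il4 sits at 15.20 and 15.57 on the Th2 arrays, and its Th1 arrays lie apart at 6.11 and 10.60.

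Il4, Il13 and Il5 lie side by side on chromosome 11, with Kif3a on one flank and Rad50 between Il13 and Il5, in the order of the RefSeq annotation of GRCm38.p6. Kif3a, a motor subunit for transport in cilia, gave 5.17 and 5.18 in Th1 and 11.70 and 10.53 in Th2 cultures. Both Th2 arrays were above both Th1 arrays, and Kif3a rose by 5.94 log2 units (SE 0.43, adjusted p = 0.0279). Its other 3 probe sets were also higher in Th2 cells, by 1.19, 3.64 and 3.80, and the mean of all 4 gave 3.64, which did not pass. Septin8, the next gene beyond Kif3a, gave 3.22 and 3.96 on the Th1 arrays and 6.34 and 5.06 on the Th2 arrays, without overlap, and did not pass at a difference of 2.11 log2 units (SE 0.50, adjusted p = 0.275). Rad50, a DNA repair gene whose introns hold control regions of the Th2 cytokines, gave 8.54 and 8.68 in Th1 cells against 9.17 and 9.17 in Th2 cells and differed by 0.56 log2 units (SE 0.19, adjusted p = 0.396). Irf1, on the far side of Il5, overlapped between the groups at 9.36 and 9.84 in Th1 and 9.37 and 10.25 in Th2 cultures. Further out, P4ha2, an enzyme of collagen maturation, was the one tested gene of the 16 in this stretch without overlap on the Th1 side, at 7.11 and 4.87 on the Th1 arrays and 3.85 and 3.92 on the Th2 arrays, and did not pass (adjusted p = 0.427). The genes that differed by more than 4 were Kif3a, Il4, Il13 and Il5, and Rad50 among them differed by less than 1.

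**Figure D3:**
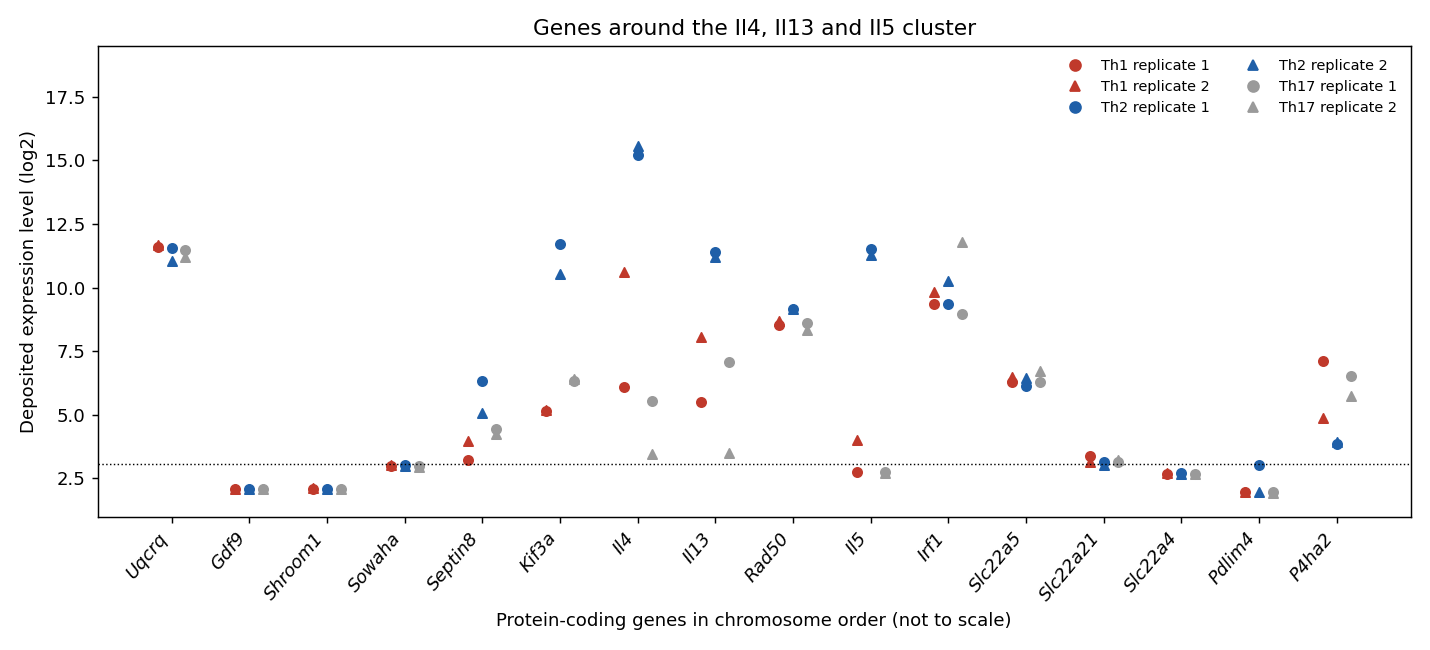
Log2 signal on each cultured array (red Th1, blue Th2, grey Th17, circles replicate 1, triangles replicate 2) for 16 genes around Il4, Il13 and Il5, in their order along chromosome 11 and not to scale; the dotted line is the filter value, 3.06. For Kif3a, Il4, Il13 and Il5 both Th2 arrays lie more than 3 log2 units above both Th1 arrays, while the means of Rad50 and Irf1 differ by 0.56 and 0.20.

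The promoters of 5 cytokine genes are shown because Il4, Il5, Il13 and Ifng encode the cytokines that define the lineages and Il9 was, with Il5, a called cytokine gene. Each is the 250 bases before a RefSeq start of GRCm38.p6, 5′ to 3′ on the gene's strand. The windows are chr11:53720544-53720793 (plus strand) for Il5, chr11:53634703-53634952 (minus strand) for Il13, chr11:53618666-53618915 (minus strand) for the second of 2 Il4 starts, chr13:56482258-56482507 (minus strand) for Il9 and chr10:118440796-118441045 (plus strand) for Ifng. Capitals mark a GATA core (AGATAA or its variants TGATAA and AGATAG and TGATAG), the spacing bound by STAT6 (TTC, then any 4 bases, then GAA) or the spacing one base shorter that other STATs bind (TTCNNNGAA). These and a T-box core (GGTGTGA) were searched on both strands.
Il5: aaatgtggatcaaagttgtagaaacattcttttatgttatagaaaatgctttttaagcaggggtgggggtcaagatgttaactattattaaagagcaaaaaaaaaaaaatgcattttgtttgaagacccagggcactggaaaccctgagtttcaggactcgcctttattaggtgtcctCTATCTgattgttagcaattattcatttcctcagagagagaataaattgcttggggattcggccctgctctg
Il13: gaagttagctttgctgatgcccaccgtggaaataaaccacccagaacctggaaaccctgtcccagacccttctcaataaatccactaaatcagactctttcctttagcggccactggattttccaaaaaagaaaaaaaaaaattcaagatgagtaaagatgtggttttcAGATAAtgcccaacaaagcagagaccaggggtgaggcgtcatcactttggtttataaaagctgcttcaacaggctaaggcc
Il4: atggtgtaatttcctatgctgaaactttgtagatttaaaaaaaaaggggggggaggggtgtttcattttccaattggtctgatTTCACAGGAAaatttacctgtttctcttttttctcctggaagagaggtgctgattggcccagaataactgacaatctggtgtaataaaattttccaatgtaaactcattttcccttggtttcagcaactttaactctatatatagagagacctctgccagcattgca
Il9: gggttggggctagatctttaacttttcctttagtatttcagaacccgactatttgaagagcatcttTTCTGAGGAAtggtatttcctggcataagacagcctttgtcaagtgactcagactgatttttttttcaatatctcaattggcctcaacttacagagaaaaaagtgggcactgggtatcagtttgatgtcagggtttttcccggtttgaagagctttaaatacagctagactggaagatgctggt
Ifng: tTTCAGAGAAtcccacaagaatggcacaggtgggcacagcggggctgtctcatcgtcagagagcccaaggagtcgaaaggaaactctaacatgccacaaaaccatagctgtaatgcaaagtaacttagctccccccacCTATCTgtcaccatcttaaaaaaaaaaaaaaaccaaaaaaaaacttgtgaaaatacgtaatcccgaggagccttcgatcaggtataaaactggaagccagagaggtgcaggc

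A GATA core lay 72 to 67 bases before the start of Il5, on the minus strand, 81 to 76 bases before that of Il13 and 112 to 107 bases before that of Ifng, again on the minus strand. The STAT6 spacing lay 167 to 158 bases before the Il4 start shown and 184 to 175 before that of Il9, and the shorter spacing 249 to 241 before that of Ifng. Il4 also held GATA cores outside the bases shown, 15 to 20 bases after this start and 80 to 75 bases before its first start. The shorter STAT spacing lay across that first Il4 start, from 4 bases before to 5 bases after it. No T-box core was found in these windows. These letters are common: a GATA core was in the 300 bases around the start (250 before and 50 after) of 33.0% of 27025 genes with a promoter in the table and of 22.4% of the 8702 tested genes with one. It was there in 5 of the 24 genes called in Th2 cells that had a promoter (20.8%) and in 3 of 4 called in Th1 cells. The STAT6 spacing was in 8.01% of all genes, 6.72% of tested genes, 3 of the 24 and 0 of the 4, and the T-box core in 4.60%, 4.09%, 4 of the 24 and 0 of the 4. The shorter STAT spacing was in 9.55% of all genes, 8.43% of tested genes, 0 of the 24 and 0 of the 4. The motifs do not overlap in the sequences shown.

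Outside the cytokines, the Th2 calls covered receptors, enzymes and cytoskeletal genes. Epas1 had the largest difference of the called genes; it encodes HIF-2alpha, a factor that responds to low oxygen. It gave 3.68 and 3.60 in Th1 cells against 11.42 and 13.07 in Th2 cells, with 3.52 and 2.82 on the Th17 arrays. The Th1 arrays were close together, the Th2 arrays were far above, and Epas1 rose by 8.60 log2 units (SE 0.62, adjusted p = 0.0279). A second probe set of Epas1 was higher in Th2 cells by 4.92.

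Several called genes encode surface receptors. Cd200r1, an inhibitory receptor for CD200, gave 3.10 and 2.30 in Th1 and 8.25 and 7.82 in Th2 cultures and rose by 5.33 log2 units (SE 0.36, adjusted p = 0.0250). Calcrl, the receptor chain for adrenomedullin and CGRP, gave 8.45 and 7.50 on the Th1 arrays and 13.18 and 12.82 on the Th2 arrays and rose by 5.02 log2 units (SE 0.35, adjusted p = 0.0270). Htr1b, a serotonin receptor, gave 2.66 and 2.57 in Th1 cells against 6.61 and 7.31 in Th2 cells and rose by 4.34 log2 units (SE 0.25, adjusted p = 0.0156), though a second Htr1b probe set was low on all 4 arrays. In all 3 receptor genes both Th2 arrays lay above both Th1 arrays. On the Th17 arrays Calcrl was also high, at 11.14 and 11.11, Cd200r1 was at 5.90 and 5.55, and Htr1b was low at 2.66 and 2.54.

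Other called genes encode enzymes, scaffold proteins and secreted proteins. Rnf128, the ubiquitin ligase GRAIL tied to T cell unresponsiveness, gave 3.64 and 3.70 in Th1 and 7.73 and 8.05 in Th2 cultures and rose by 4.22 log2 units (SE 0.19, adjusted p = 0.00723). Rnf152, another RING finger protein, gave 2.83 and 2.96 on the Th1 arrays and 7.62 and 8.11 on the Th2 arrays and rose by 4.97 log2 units (SE 0.21, adjusted p = 0.00607). Asb2, a subunit of a ubiquitin ligase, gave 5.98 and 5.74 in Th1 cells against 9.28 and 9.84 in Th2 cells and rose by 3.70 log2 units (SE 0.29, adjusted p = 0.0326). The Th1 arrays of Rnf128 and Rnf152 differed by less than 1 from each other and the groups of all 3 genes stood apart. Tanc2, a scaffold protein, went from 2.73 and 2.48 on the Th1 arrays to 8.86 and 8.92 on the Th2 arrays, a difference of 6.29 log2 units (SE 0.16, adjusted p = 0.00405). Ggct, an enzyme of glutathione breakdown, gave 7.95 and 8.61 in Th1 and 12.44 and 12.33 in Th2 cultures and rose by 4.11 log2 units (SE 0.26, adjusted p = 0.0189). Hgf, the secreted hepatocyte growth factor, gave 2.41 and 2.48 on the Th1 arrays and 6.26 and 5.69 on the Th2 arrays and rose by 3.53 log2 units (SE 0.20, adjusted p = 0.0156). Adamtsl3, a secreted matrix protein, rose by 4.27 and Arfgef3 by 4.71. Both were close to or under the filter value on at least 1 Th1 array. Like Il9, Tanc2, Rnf152, Hgf and Adamtsl3 passed the filter through the Th2 arrays alone. Their Th17 arrays gave 2.69 and 2.67 for Tanc2 and 2.83 and 2.84 for Rnf152. Hgf gave 2.43 and 2.45 there, and Adamtsl3 2.43 and 2.37. The SEs of these genes thus rest in large part on low signals, and no Th1 level above background was shown. The remaining called genes were Sh3d19, Mboat1, Wdfy2, Zpbp2, Oaf, Ankrd36, Nfia, Zfyve16, Myo9a, Bcar3 and Grhl1, with differences from 1.41 to 3.63.

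The choice of probe set touched some of these genes. Of the 31 called genes, 20 had 33 other probe sets, of which 19 were above the filter value on at least 1 of the 4 arrays; all 19 had the direction of the one used, 17 by at least 1. Averaging all probe sets of a gene brought the difference of Sh3d19 to 0.95 and that of Hgf to 2.19, and neither passed then; for Sh3d19 the other 3 were low on all 4 arrays. The same averaging lowered Htr1b to 2.17, Zpbp2 to 1.57 and Ankrd36 to 1.36, which still passed, and Bcar3 to 0.94, which did not. Arfgef3 at 4.15, Myo9a at 1.57 and Grhl1 at 1.41 did not pass then either (adjusted p = 0.0655, 0.0612 and 0.0534), and 18 of the 26 Th2 calls remained.

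**Figure D4:**
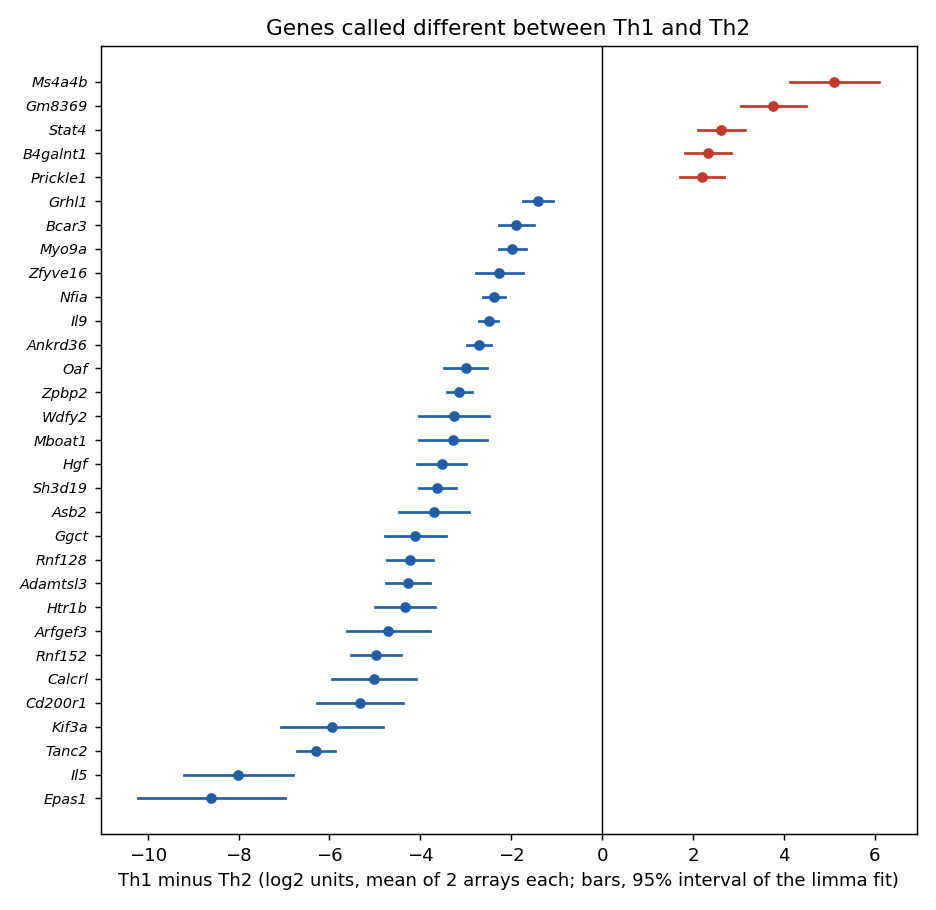
Th1 minus Th2 difference of each of the 31 called genes, in log2 units, with bars for the 95% interval of the limma fit. Epas1 (-8.60) and Il5 (-8.00) are the largest on the Th2 side and Ms4a4b (5.11) on the Th1 side.

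None of 18 tested Th2 regulators and none of 11 Th2 receptors and surface proteins was called by limma; at an unadjusted p under 0.05 there were 5 regulators and 6 receptors on the Th2 side and 1 regulator on the Th1 side. Without overlap, 3 regulators and 5 receptors were higher in Th2 cells. The median difference was 0.18 (from -0.21 without Th1 replicate 2 to 0.44 without Th1 replicate 1) for the regulators and 1.03 (from 0.63 without Th2 replicate 2 to 1.44 without Th1 replicate 1) for the receptors. Gata3, the master factor of Th2 cells, gave 4.95 and 7.74 in Th1 cells against 10.44 and 11.13 in Th2 cells. The Th2 arrays were both higher, Th1 replicate 2 lay between, and the difference of 4.44 log2 units (SE 1.01, adjusted p = 0.261) did not pass. Maf, which drives Il4 transcription, gave 11.68 and 9.10 in Th1 and 13.39 and 13.87 in Th2 cultures (adjusted p = 0.317). Pparg, a lipid-sensing nuclear receptor, gave 6.05 and 4.46 on the Th1 arrays and 10.26 and 9.64 on the Th2 arrays and differed by 4.69 log2 units (SE 0.62, adjusted p = 0.103), also without overlap. The group was mixed: Stat6, which carries the IL-4 signal, lay slightly the other way, at 10.17 and 9.66 in Th1 cells against 9.41 and 9.60 in Th2 cells, and Nfil3 overlapped at 10.56 and 7.59 in Th1 and 9.55 and 10.98 in Th2 cultures. Gfi1, a repressor that supports Th2 growth, gave 10.41 and 10.65 on the Th1 arrays and 10.99 and 11.08 on the Th2 arrays, apart but by only 0.51. Zfpm1, which encodes the GATA partner FOG-1, was the regulator without overlap on the Th1 side, at 7.11 and 7.02 in Th1 cells against 5.81 and 5.79 in Th2 cells, a difference of 1.27 log2 units (SE 0.20, adjusted p = 0.146).

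Among the receptors, Ccr8, a chemokine receptor of Th2 cells, gave 2.34 and 4.33 in Th1 and 8.92 and 9.43 in Th2 cultures and differed by 5.84 log2 units (SE 0.95, adjusted p = 0.150). Ccr4, another one, gave 3.48 and 4.13 on the Th1 arrays and 6.68 and 7.95 on the Th2 arrays and differed by 3.50 log2 units (SE 0.69, adjusted p = 0.219), and Ptgir, the prostacyclin receptor, gave 4.70 and 5.46 in Th1 cells against 8.56 and 8.69 in Th2 cells (adjusted p = 0.268). In all 3 the groups did not overlap, and in none did the test pass. Il4ra, the IL-4 receptor chain, overlapped at 10.30 and 8.73 in Th1 and 9.25 and 10.72 in Th2 cultures. Ccr3 and Ptgdr2, the latter the receptor CRTH2, were low on all 4 arrays.

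On the Th1 side, 5 genes were called. Ms4a4b, a membrane protein of T cells, gave 14.21 and 14.40 on the Th1 arrays and 9.06 and 9.33 on the Th2 arrays. Both Th1 arrays lay far above both Th2 arrays, the Th17 arrays lay between at 11.29 and 12.37, and Ms4a4b was higher in Th1 cells by 5.11 log2 units (SE 0.38, adjusted p = 0.0280). Stat4, which carries the IL-12 signal, gave 11.51 and 11.95 in Th1 cells against 9.15 and 9.08 in Th2 cells, with 10.22 and 10.40 on the Th17 arrays. Its groups did not overlap and it was higher in Th1 cells by 2.62 log2 units (SE 0.20, adjusted p = 0.0291), a factor of 6.14. The other 3 were Gm8369, a predicted gene, at 3.76, B4galnt1, an enzyme of ganglioside synthesis, at 2.34, and Prickle1, a planar polarity gene, at 2.20. Prickle1 was as high on the Th17 arrays, at 5.08 and 5.45, as on the Th1 arrays, at 5.32 and 5.12. Gm8369 gave 8.98 and 9.24 on the Th17 arrays, near its 9.71 and 9.75 on the Th1 arrays. For B4galnt1 the Th17 arrays lay between the groups at 10.01 and 9.85. Averaging all probe sets left 2 of the 5 calls: it lowered Ms4a4b to 3.83 (adjusted p = 0.0938), B4galnt1 to 1.30 and Prickle1 to 0.70, and none of these 3 passed then.

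Of 16 Th1 cytokines and regulators, Stat4 was called, 7 were higher in Th1 cells without overlap and 1 (Id2) in Th2 cells, and the median difference was 1.23 (from 0.30 without Th1 replicate 1 to 1.93 without Th1 replicate 2). Ifng was high in both groups: 15.39 and 15.07 in Th1 and 14.12 and 12.09 in Th2 cultures, against 13.30 and 10.72 on the Th17 arrays. The Th1 arrays were the higher ones, Th2 replicate 1 lay near them, and the difference of 2.12 log2 units (SE 1.07, adjusted p = 0.547) did not pass. Tbx21 gave 10.89 and 9.43 on the Th1 arrays and 7.38 and 8.30 on the Th2 arrays, and the Th2 arrays were well above the filter value; it differed by 2.32 log2 units (SE 0.60, adjusted p = 0.300). Eomes, the related T-box factor of killer cells, gave 8.76 and 9.07 in Th1 cells against 6.39 and 4.92 in Th2 cells and differed by 3.26 log2 units (SE 0.80, adjusted p = 0.279). Lta, lymphotoxin alpha, gave 11.66 and 10.88 in Th1 and 8.18 and 7.45 in Th2 cultures, a difference of 3.46 log2 units (SE 0.50, adjusted p = 0.121), and Tnf gave 11.90 and 10.49 on the Th1 arrays and 9.21 and 8.58 on the Th2 arrays, a difference of 2.30 log2 units (SE 0.73, adjusted p = 0.374). These 4 did not overlap between the groups either. Bhlhe40, a factor needed for full cytokine output of Th1 cells, was the last without overlap, at 1.07. Hlx, a partner of T-bet, was high on one array, with 7.53 and 2.53 in Th1 cells against 3.15 and 3.14 in Th2 cells, and Runx3 gave 10.21 and 9.44 in Th1 and 9.06 and 9.14 in Th2 cultures, a difference of 0.72. Id2, an inhibitor of E proteins, gave 13.69 and 12.03 on the Th1 arrays and 14.32 and 13.92 on the Th2 arrays.

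Among the 15 Th1 receptors and surface proteins, the chains of the IL-12 receptor and those of the IFN-gamma receptor lay in opposite directions. Limma called 0 of the 15 (3 on the Th1 side and 2 on the Th2 side unadjusted). Without overlap, 5 were higher in Th1 and 4 in Th2 cells, and the median difference was 0.32 (from 0.11 without Th2 replicate 1 to 0.93 without Th1 replicate 1). Il12rb2, the IL-12 receptor chain that Th2 cells lose, gave 10.73 and 8.24 in Th1 cells against 3.18 and 4.58 in Th2 cells and differed by 5.60 log2 units (SE 0.97, adjusted p = 0.174). Il12rb1, the chain shared with the IL-23 receptor, lay the other way at 9.45 and 9.28 in Th1 and 10.55 and 10.48 in Th2 cultures, a difference of 1.15 log2 units (SE 0.22, adjusted p = 0.214) in favour of Th2 cells. Neither chain overlapped between the groups. Of the IFN-gamma receptor, Ifngr1 gave 9.23 and 8.60 on the Th1 arrays and 7.00 and 7.48 on the Th2 arrays, higher in Th1 cells by 1.67 (adjusted p = 0.396), and Ifngr2, the signalling chain that Th1 cells are known to reduce, gave 2.23 and 3.55 in Th1 cells against 6.05 and 5.82 in Th2 cells, higher in Th2 cells by 3.04 (adjusted p = 0.131). Il18r1, the IL-18 receptor, gave 10.46 and 7.89 in Th1 and 4.44 and 5.15 in Th2 cultures, and its partner Il18rap gave 9.62 and 8.78 on the Th1 arrays and 6.79 and 6.14 on the Th2 arrays; both lay on the Th1 side, by 4.38 and 2.73 without overlap and without passing. Cxcr3, a homing receptor of Th1 cells, overlapped at 7.06 and 9.60 in Th1 cells against 8.22 and 8.28 in Th2 cells.

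Cytotoxic and natural killer receptor genes leaned to the Th1 side. Of 20 tested, 9 were higher in Th1 cells without overlap and 1 in Th2 cells, with a median difference of 1.36 (from 0.90 without Th2 replicate 2 to 2.75 without Th2 replicate 1); limma called 0 of them (5 and 1 unadjusted). Klrk1, the receptor NKG2D, gave 11.67 and 9.18 in Th1 and 6.29 and 2.80 in Th2 cultures and differed by 5.88 log2 units (SE 1.54, adjusted p = 0.303). Nkg7, a granule protein, gave 13.73 and 12.59 on the Th1 arrays and 9.60 and 8.65 on the Th2 arrays and differed by 4.03 log2 units (SE 0.99, adjusted p = 0.279). Serpinb9, an inhibitor of granzyme B, gave 12.33 and 12.10 in Th1 cells against 11.16 and 10.90 in Th2 cells and had the lowest adjusted p of the list on the Th1 side, 0.133. In these 3 the Th1 arrays were all above the Th2 arrays. The granzymes did not share one direction. Gzmb gave 15.39 and 14.40 in Th1 and 14.11 and 13.28 in Th2 cultures. Gzma gave 13.83 and 10.51 on the Th1 arrays and 15.37 and 14.52 on the Th2 arrays. Gzmg, one of a cluster of related granzymes, stood out on Th2 replicate 1, at 5.42 and 6.90 in Th1 cells against 9.71 and 2.94 in Th2 cells. The list's median was thus highest, at 2.75, without Th2 replicate 1.

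The chemokines split into a Th1 and a Th2 set. Of 17 tested, 5 were higher in Th1 cells and 7 in Th2 cells without overlap, and limma called 0 (2 and 5 unadjusted). The Th1 set held the inflammatory chemokines Ccl3 and Ccl4 with Ccl5, Ccl1 and Xcl1. Ccl3 gave 15.40 and 15.14 in Th1 and 13.82 and 14.09 in Th2 cultures, a difference of 1.31. Ccl4 gave 13.88 and 13.05 on the Th1 arrays and 11.60 and 12.29 on the Th2 arrays, a difference of 1.52. These levels were high in both groups. Xcl1, lymphotactin, gave 13.54 and 13.88 in Th1 cells against 11.28 and 9.95 in Th2 cells, a difference of 3.09. The Th2 set held Ccl17 and Ccl22, ligands of CCR4, with Ccl24, Ccl6, Cxcl1, Cxcl2 and Cxcl3. Cxcl3 gave 13.65 and 12.01 on the Th2 arrays and 12.74 and 9.28 on the Th17 arrays. Ccl6 gave 12.10 and 8.87 on the Th2 arrays and 8.95 and 7.77 on the Th17 arrays. On the Th17 arrays Ccl24 gave 3.51 and 2.07 and Ccl17 gave 2.93 and 3.03. The list's median difference was 0.995 in favour of Th2 cells, and 0.16 without Th2 replicate 1. Ccl24, an eotaxin, gave 2.09 and 2.10 in Th1 and 10.55 and 8.85 in Th2 cultures and differed by 7.61 log2 units (SE 0.74, adjusted p = 0.0565). Ccl17 gave 2.91 and 2.51 on the Th1 arrays and 10.33 and 8.28 on the Th2 arrays and differed by 6.59 log2 units (SE 0.69, adjusted p = 0.0667). Both were low on the Th1 arrays and came near the threshold, and both are genes that macrophages and dendritic cells also make under IL-4. Ccl22 gave 3.88 and 8.50 in Th1 cells against 11.94 and 11.77 in Th2 cells, and on the Th17 arrays 12.34 and 6.86. Of 11 tested chemokine receptors limma called 0 (1 and 2 unadjusted); 4 (Ccr1, Ccr4, Ccr8 and Cxcr6) were higher in Th2 cells without overlap. The receptor without overlap on the Th1 side was Ccr7, the lymph node homing receptor, at 11.40 and 11.48 in Th1 and 9.85 and 10.49 in Th2 cultures and a difference of 1.27 log2 units (SE 0.25, adjusted p = 0.210).

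Interferon-stimulated genes leaned to the Th1 side against Th2 cells without a call. On the log2 scale their summed signal was 15.23 and 15.68 on the Th1 arrays and 14.08 and 15.00 on the Th2 arrays. It was 14.25 and 16.61 on the Th17 arrays, so Th17 replicate 2 was the highest. Of 33 tested, 12 were higher in Th1 cells and 0 in Th2 cells without overlap, with a median difference of 0.83 (from 0.43 without Th1 replicate 2 to 1.26 without Th2 replicate 2); limma called 0 (4 and 0 unadjusted). Irf8, an interferon regulatory factor, gave 12.29 and 11.86 on the Th1 arrays and 9.30 and 9.48 on the Th2 arrays and differed by 2.69 log2 units (SE 0.46, adjusted p = 0.174). Bst2, tetherin, gave 9.88 and 10.02 in Th1 cells against 8.70 and 8.07 in Th2 cells and differed by 1.56 log2 units (SE 0.27, adjusted p = 0.175). Gbp3, a guanylate-binding protein, gave 9.90 and 9.53 in Th1 and 6.12 and 6.93 in Th2 cultures, a difference of 3.19. The Th1 arrays were the higher ones in all 3. Other IFN-gamma targets overlapped, such as Igtp at 12.20 and 12.19 on the Th1 arrays and 10.73 and 12.24 on the Th2 arrays and Irgm1 at 8.72 and 10.35 in Th1 cells against 9.31 and 10.67 in Th2 cells, and on the Th17 arrays Igtp gave 11.19 and 13.98.

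Of 20 JAK, STAT and SOCS genes Stat4 was the one called; Jak2, a kinase of the IL-12 receptor, was higher in Th2 cells without overlap at 10.79 and 10.32 in Th1 and 12.23 and 12.33 in Th2 cultures (adjusted p = 0.374), as was Socs3 at 11.40 and 10.23 on the Th1 arrays and 11.56 and 12.60 on the Th2 arrays (adjusted p = 0.506). Of 16 other helper cell cytokines limma called 0 (0 and 4 unadjusted), and 5 were higher in Th2 cells without overlap: Il6, Il21, Lif, Tnfsf8 and Ebi3. Il21, which helps B cells, gave 11.79 and 8.86 in Th1 cells against 12.95 and 13.04 in Th2 cells, with Th1 replicate 2 apart. Lif gave 9.33 and 10.56 in Th1 and 11.49 and 12.16 in Th2 cultures. Il6, the cytokine that was added to the Th17 cultures, gave 4.02 and 7.69 on the Th1 arrays and 11.64 and 10.14 on the Th2 arrays. Il2, the T cell growth factor, overlapped at 12.46 and 13.90 in Th1 cells against 13.70 and 11.74 in Th2 cells, and Csf2, GM-CSF, was high in both at 13.13 and 13.79 in Th1 and 12.66 and 12.83 in Th2 cultures.

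Of 12 tested factors of other helper fates limma called 0 (2 and 3 unadjusted). Batf, an AP-1 factor, gave 9.89 and 9.01 on the Th1 arrays and 11.04 and 12.41 on the Th2 arrays. Ikzf3, the factor Aiolos, gave 8.16 and 8.80 in Th1 cells against 10.30 and 10.87 in Th2 cells. Ahr, the aryl hydrocarbon receptor, gave 5.03 and 6.94 in Th1 and 8.55 and 9.25 in Th2 cultures. These 3 were higher in Th2 cells without overlap, and Klf2 and Id3 were higher in Th1 cells, by 1.34 and 1.63. Bcl6, the factor of follicular helper cells, overlapped at 6.33 and 8.15 on the Th1 arrays and 8.54 and 7.80 on the Th2 arrays, and Foxp3, that of regulatory T cells, was low on all 4 arrays, at 2.37 and 2.40 in Th1 cells against 2.38 and 2.38 in Th2 cells. Of 18 costimulatory and inhibitory receptors limma called 0 (0 and 2 unadjusted); Cd160 and Tnfrsf9 were higher in Th1 cells and Ctla4 and Pdcd1lg2 in Th2 cells without overlap. Pdcd1lg2, the ligand PD-L2, gave 8.95 and 10.15 in Th1 and 11.40 and 10.98 in Th2 cultures. Cd160, an inhibitory receptor of T and natural killer cells, gave 9.59 and 12.09 on the Th1 arrays and 8.10 and 5.97 on the Th2 arrays.

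Growth and metabolism genes are set beside the shares over all tested genes, with all arrays in the fit. There 0.291% were called, and 3.74% were higher in Th1 and 5.71% in Th2 cells without overlap. In lists of 17 to 33 genes, counts of 0 or 1 are thus not read as a result about a pathway. Of 33 cell cycle genes 0 were called and 0 were apart without overlap by at least 1 (1 and 0 unadjusted with limma), with a median difference of 0.31 (from -0.0303 without Th1 replicate 2 to 0.74 without Th1 replicate 1). Mki67, a marker of dividing cells, gave 11.74 and 12.94 in Th1 cells against 12.25 and 11.88 in Th2 cells. Of 17 glycolysis genes 0 were called (1 and 0 unadjusted) and Slc16a3, a lactate exporter, was higher in Th1 cells without overlap at 8.56 and 6.63 in Th1 and 5.73 and 6.06 in Th2 cultures; their median difference was 0.31 (from -0.12 without Th1 replicate 1 to 0.75 without Th1 replicate 2). Of 22 cholesterol and fatty acid genes 0 were called (0 and 1 unadjusted), and Hsd17b7, an enzyme of cholesterol synthesis, was higher in Th2 cells without overlap at 8.74 and 7.12 on the Th1 arrays and 9.82 and 10.31 on the Th2 arrays. Their median difference was 0.33 (from -0.79 without Th1 replicate 1 to 1.16 without Th1 replicate 2). Many genes of this pathway were lower on Th1 replicate 2 than on Th1 replicate 1, such as Msmo1 at 11.54 and 8.04 in Th1 cells against 10.52 and 9.95 in Th2 cells.

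T cell genes were high on all 4 arrays. Of 9 T cell identity genes 0 were called by limma (3 and 0 unadjusted), and their summed signal was 15.85 and 15.75 on the Th1 arrays and 15.16 and 15.62 on the Th2 arrays, on the log2 scale. Cd3d, a chain of the T cell receptor complex, gave 13.92 and 14.05 in Th1 and 13.69 and 14.17 in Th2 cultures. Cd4 gave 9.93 and 9.44 on the Th1 arrays and 8.61 and 9.0 on the Th2 arrays. Lat, an adaptor of the T cell receptor, gave 12.92 and 12.69 in Th1 cells against 11.74 and 11.54 in Th2 cells and differed by 1.16 log2 units (SE 0.14, adjusted p = 0.0851); Cd5 and Thy1 were also higher in Th1 cells without overlap. The marker Cd8a was little above the filter value at 4.06 and 3.76 in Th1 and 4.22 and 3.44 in Th2 cultures, and Ncr1, which defines natural killer cells, was low on all 4 arrays. Cd8b1, another marker of this list, was brighter, at 7.39 and 7.19 in Th1 and 6.45 and 7.00 in Th2 cultures. Tyrobp, also on the list, gave 4.80 and 6.10 on the Th1 arrays and 9.56 and 5.33 on the Th2 arrays. The summed signal of the markers of CD8 T cells and natural killer cells was 9.42 and 9.66 in Th1 and 9.95 and 7.96 in Th2 cells.

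Many markers of antigen-presenting cells lay higher in the Th2 cultures, those of macrophages and dendritic cells mostly on Th2 replicate 1. For B cells, 8 of 13 tested markers were higher in Th2 cells without overlap and 0 in Th1 cells; their summed signal was 10.11 and 11.52 on the Th1 arrays, 13.76 and 14.51 on the Th2 arrays and 13.80 and 12.79 on the Th17 arrays. Ighm, the immunoglobulin mu chain, gave 7.78 and 10.49 on the Th1 arrays and 13.27 and 13.85 on the Th2 arrays. Cd79b, a chain of the B cell receptor, gave 3.77 and 4.61 in Th1 cells against 7.69 and 8.95 in Th2 cells. The lead of the Th2 arrays was plain in both, and the Th17 sums lay with the Th2 sums. H2-Aa, an MHC class II chain, gave 3.35 and 8.30 in Th1 and 10.07 and 11.21 in Th2 cultures. Pax5, Blk and Cr2 were low on all 4 arrays. For macrophages, monocytes and dendritic cells, 10 of 19 were higher in Th2 cells without overlap, with summed signals of 12.14 and 12.46 in Th1 and 14.13 and 12.59 in Th2 cells and a median difference of 2.22 (from 0.81 without Th2 replicate 1 to 3.71 without Th2 replicate 2). The sum on Th2 replicate 2 was thus close to the Th1 sums, and it was below the Th17 sums of 13.39 and 13.00. Lyz2, lysozyme, gave 1.86 and 4.64 on the Th1 arrays and 10.26 and 6.83 on the Th2 arrays. Csf1r, the macrophage growth factor receptor, gave 2.31 and 2.44 in Th1 cells against 8.81 and 4.21 in Th2 cells. In both genes Th2 replicate 1 was the highest array. The brightest markers of this list, Ctss and Cebpb, overlapped between the groups. Ctss gave 11.65 and 11.97 on the Th1 arrays and 12.44 and 11.41 on the Th2 arrays. Cebpb gave 10.05 and 8.96 in Th1 cells against 10.12 and 9.42 in Th2 cells. Fcgr1, C1qa and Flt3 were low on all 4 arrays. No gene of either list was called by limma; at an unadjusted p under 0.05, 6 and 5 were higher in Th2 cells and 0 and 0 in Th1 cells.

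The same held for genes that macrophages make under IL-4, 10 of 12 of which were higher in Th2 cells without overlap and 0 of which were called by limma (6 higher in Th2 and 0 higher in Th1 cells unadjusted). Their summed signal was 9.81 and 12.04 on the Th1 arrays, 15.02 and 13.73 on the Th2 arrays and 13.54 and 12.76 on the Th17 arrays. Chil3, the chitinase-like protein Ym1, had the largest difference of all genes without overlap, at 2.08 and 2.16 in Th1 and 13.79 and 10.87 in Th2 cultures, and differed by 10.21 log2 units (SE 2.31, adjusted p = 0.261). Arg1, arginase, gave 2.37 and 2.38 on the Th1 arrays and 11.98 and 8.84 on the Th2 arrays. Mrc1, the mannose receptor, gave 3.94 and 3.96 in Th1 cells against 8.48 and 5.51 in Th2 cells. Retnla, Cd209a and Alox15 were low on all 4 arrays. Th2 replicate 1 was above replicate 2 in Chil3, Arg1 and Mrc1. Ccl24, Ccl17, Ccl22 and Pdcd1lg2, described above, belong to this list too, and the part of other cells in the difference of any gene was not tested.

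Many markers of further blood cells were highest on Th2 replicate 1. Among the 4 Th1 and Th2 arrays it was the highest by over 1 log2 unit for 7 of 12 neutrophil markers, 9 of 16 markers of mast cells, basophils and eosinophils and 3 of 9 erythroid and platelet markers. By the same measure it was highest for 15 of 22 macrophage and dendritic markers, 9 of 17 IL-4 macrophage genes and 9 of 23 chemokines. Another array was above it by over 1 for 1, 0 and 7 genes of these lists. In the lists not named here, the measure ran from 0, as for 33 cell cycle genes, to 4 of 21 cytotoxic and natural killer receptor genes. The share over all genes was not counted, so these counts have no background share beside them. S100a8, a neutrophil protein, gave 2.97 and 3.11 in Th1 and 11.10 and 3.04 in Th2 cultures. Cpa3, a mast cell protease, gave 5.34 and 6.66 on the Th1 arrays and 9.25 and 3.13 on the Th2 arrays. Mcpt8, a basophil protease, gave 2.76 and 2.76 in Th1 cells against 9.17 and 2.63 in Th2 cells. In these 3 genes Th2 replicate 2 was within or below the range of the Th1 arrays. Pf4, a platelet factor, gave 5.69 and 5.78 in Th1 and 11.84 and 7.33 in Th2 cultures, so Th2 replicate 2 was above the Th1 arrays too. Other markers went another way. Siglecf, an eosinophil receptor, was highest on Th1 replicate 1, at 8.86 and 7.59 on the Th1 arrays and 8.35 and 7.01 on the Th2 arrays. Cxcr2, a neutrophil chemokine receptor, gave 4.90 and 4.34 in Th1 cells against 4.46 and 4.15 in Th2 cells, and its highest cultured array was Th17 replicate 2 at 5.36. Mmp9, a neutrophil protease, was highest on Th17 replicate 1 at 6.76, against 2.97 and 3.12 in Th1 and 3.69 and 3.59 in Th2 cultures. The erythroid Slc4a1 was level at 3.33 and 3.37 on the Th1 arrays and 3.36 and 3.36 on the Th2 arrays. The summed signal on the Th2 arrays was 11.91 and 6.44 for neutrophil markers, 11.29 and 7.85 for mast cells, basophils and eosinophils, and 12.21 and 7.78 for erythroid cells and platelets. On the Th1 arrays the sums were 6.57 and 6.45 for neutrophil markers, 9.23 and 8.75 for the mast cell list and 6.64 and 6.68 for the erythroid list. The filter left 5 neutrophil markers, 6 of the mast cell list and 4 of the erythroid and platelet list to test. Limma called 0 of these, with 0 at an unadjusted p under 0.05. A marker above the filter value on fewer than 2 of the 6 cultured arrays was not tested. Low on all 4 arrays were the neutrophil markers Camp, Ltf and Csf3r, the mast cell and eosinophil markers Kit, Mcpt2, Mcpt4, Tpsab1, Tpsb2 and Epx, and the erythroid markers Hba-a1, Alas2, Klf1 and Epor.

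Without Th2 replicate 1, the macrophage and dendritic cell markers had a median difference of 0.81 in favour of Th2 cells. The genes of macrophages under IL-4 had 2.02. B cell markers had 2.71. The Th2 cytokines kept a median of 4.44 without that array, and Il5 had 7.89, Epas1 9.43 and Kif3a 5.35.

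**Figure D5:**
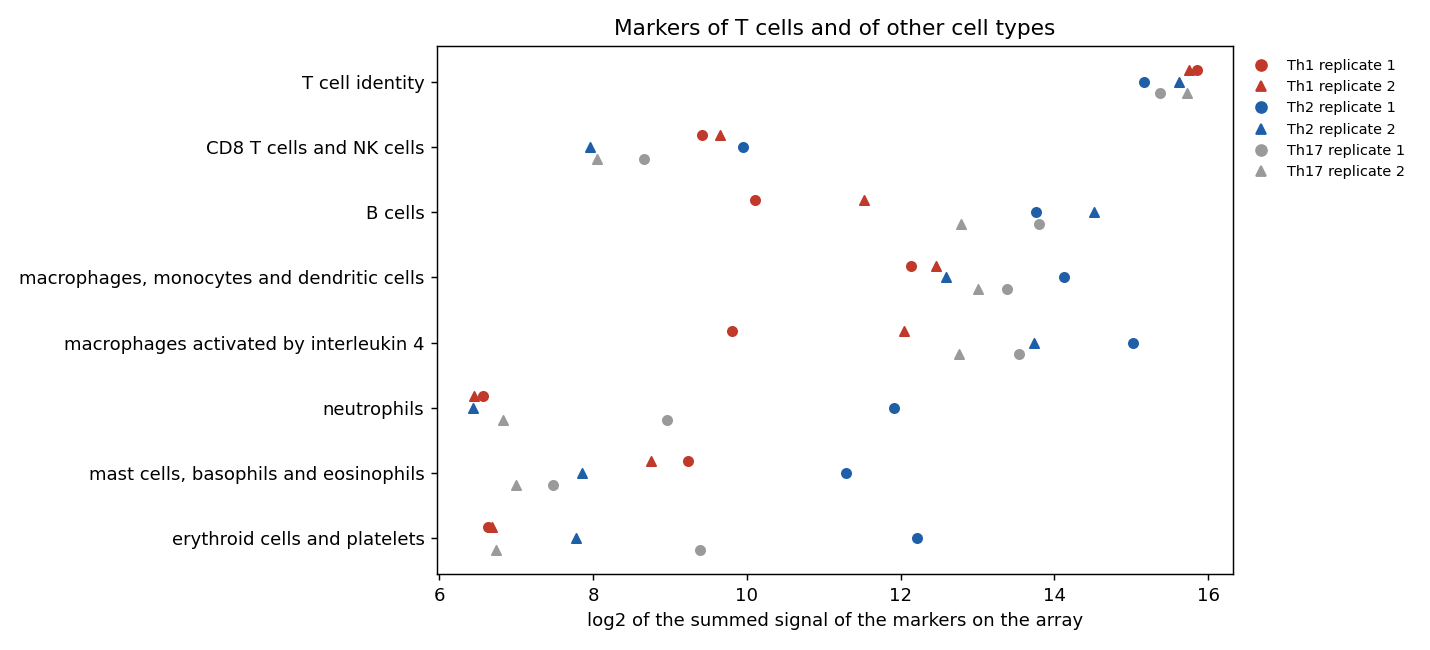
Log2 of the summed signal of each marker list on each cultured array, red for Th1, blue for Th2 and grey for Th17, with circles for replicate 1 and triangles for replicate 2. Neutrophil markers are at 11.91 on Th2 replicate 1 and at 6.44 on replicate 2, while T cell identity genes lie between 15.16 and 15.85 on the 4 Th1 and Th2 arrays.

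Of the 72 genes higher in Th2 cells by at least 4 without overlap, 12 were called. The 72 include the B cell markers Ighm and H2-Aa and the macrophage genes Lyz1, Lyz2, Chil3 and Arg1. Akr1c18, a steroid-metabolising enzyme, gave 2.81 and 4.93 in Th1 cells against 15.09 and 12.97 in Th2 cells and differed by 10.16 log2 units (SE 0.99, adjusted p = 0.0565), and Myo6, an actin motor, gave 2.53 and 2.59 in Th1 and 9.17 and 11.80 in Th2 cultures and differed by 7.93 (adjusted p = 0.0759). Both groups of arrays were far apart, and within the Th2 group the 2 arrays differed by over 2 log2 units. Inhba, a chain of activin, gave 7.25 and 6.92 on the Th1 arrays and 12.23 and 12.49 on the Th2 arrays and differed by 5.27 log2 units (SE 0.71, adjusted p = 0.105). Nts, the neuropeptide neurotensin, gave 3.82 and 8.41 in Th1 cells against 13.83 and 11.18 in Th2 cells and differed by 6.39 (adjusted p = 0.310). On the Th1 side, Ms4a4c, a relative of Ms4a4b, gave 8.83 and 11.43 in Th1 and 2.89 and 2.91 in Th2 cultures and differed by 7.23 log2 units (SE 0.89, adjusted p = 0.0914). Crtam, an adhesion receptor of cytotoxic CD4 T cells, gave 10.59 and 11.22 on the Th1 arrays and 8.34 and 7.62 on the Th2 arrays and differed by 2.92 (adjusted p = 0.322), and Ltb, lymphotoxin beta, gave 12.48 and 12.28 in Th1 cells against 8.53 and 9.37 in Th2 cells and differed by 3.42 (adjusted p = 0.445). These genes were chosen after their values were seen.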

How the data were processed

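Affymetrix mouse arrays were hybridised with biotin-labelled RNA extracted with Trizol, per the labels' protocols. The authors deposited log2 expression values made with GCRMA, per the submitters' processing notes; its version and which arrays were normalized together are not given in the sources used here. Of 45101 probe sets, 64 controls, 932 with several symbols and 9160 with none were left out, and each of 18193 genes was represented by its brightest probe set, judged by the mean of all 8 arrays. limma 3.58.1 in R 4.3.3 fitted the 3 cultured groups (empirical Bayes with trend, 3 residual and 1.75 prior degrees of freedom), and p-values were adjusted over all 10635 tested genes. Tested on simulated data, it called 8% of genes changed by 1 log2 unit and 76% of those changed by 4.

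The members and gene lists were chosen with earlier results of these data known, and the rule on arrays that do not overlap was chosen after the data were seen. Named genes are the 12 largest called per direction (without predicted genes), a fixed set of lineage genes, the called members or else the 2 lowest adjusted p-values per list, and the brightest markers of other cells; others named were chosen after their values were seen. Summed signals are log2 of the sum of 2 to the power of each level. Probe set names follow the platform annotation. Alternatives covered normalization, samples in the fit, the filter, the probe set rule, limma's prior, a replicate block and leaving out each array.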

Additional observations from a re-analysis of the deposited data

How the results depend on the processing

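With all 8 arrays in the fit, limma called 42 genes in Th1 and 102 in Th2 cells, among them all 31, and with the 4 Th1 and Th2 arrays alone 0 and 0 (559 and 681 at an unadjusted p under 0.05). Testing all 18193 genes gave 1 and 18, and the stricter filter (above 7.02 on 2 arrays, 6879 genes) 4 and 10. Deviations of same-numbered arrays correlated at 0.0035 for Th1 with Th2, 0.257 for Th1 with Th17 and 0.272 for Th2 with Th17. These values do not settle whether replicate numbers pair the samples. The replicate block gave 1 and 13. Leaving out one array gave 0 to 2 and 0 to 53 calls and, an alternative chosen after seeing the data, 471 to 695 Th1-side and 630 to 867 Th2-side genes without overlap, where fewer arrays can overlap. Normalization, probe set rule and limma's prior gave 4 to 7 and 18 to 27.

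With one array left out, the list medians of Th1 minus Th2 ranged from 0.30 to 1.93 for Th1 cytokines and regulators, 0.11 to 0.93 for Th1 receptors, -4.44 to -3.97 for Th2 cytokines, -0.44 to 0.21 for Th2 regulators, -1.44 to -0.63 for Th2 receptors, 0.90 to 2.75 for cytotoxic genes, -1.83 to -0.16 for chemokines, -1.94 to -0.19 for chemokine receptors, -0.29 to 0.0529 for other cytokines, -0.15 to 0.21 for JAK, STAT and SOCS genes, 0.43 to 1.26 for interferon-stimulated genes, -0.26 to 0.20 for costimulatory receptors, -0.56 to 0.0336 for other fate regulators, -0.0303 to 0.74 for cell cycle, -0.12 to 0.75 for glycolysis, -0.79 to 1.16 for lipid synthesis, 0.18 to 0.91 for T cell identity, -0.0112 to 0.12 for CD8 and natural killer markers, -2.71 to -0.62 for B cells, -3.71 to -0.81 for macrophage and dendritic markers, -5.13 to -2.02 for IL-4 macrophage genes, -3.55 to -0.00386 for neutrophils, -3.46 to 1.01 for mast cell markers, -3.35 to -0.80 for erythroid and platelet markers. The stricter filter gave 1.03 for Th1 receptors, -0.93 for other fate regulators, 0.56 for CD8 and natural killer markers, -4.13 for B cells, -6.59 for IL-4 macrophage genes, 0.55 for mast cell markers and -3.85 for erythroid and platelet markers, and left no neutrophil marker to test. The last list also had -3.85 with the mean of probe sets and with the largest variance, and CD8 and natural killer markers 0.080 with quantile normalization and 0.14 with the mean of probe sets. Fewer genes tested made these lists shorter; for the other changes the cause was not tested.

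Direction turned for 18 named genes when an array was left out, with Th1 minus Th2 from -0.00160 to 0.45 for Cd2, -0.18 to 0.30 for Cd3d, -0.30 to 0.60 for Cd3g, -0.31 to 0.47 for Cd8a, -0.81 to 0.28 for Cebpb, -3.66 to 0.11 for Cma1, -3.25 to 2.86 for Cpa3, -0.63 to 0.40 for Ctss, -1.19 to 1.35 for Cxcr3, -4.00 to 0.80 for Hdc, -0.61 to 4.38 for Hlx, -0.52 to 1.44 for Il2, -1.26 to 0.31 for Il4ra, -0.59 to 0.17 for Itga2b, -2.68 to 0.30 for Nfil3, -0.13 to 1.22 for Siglecf, -0.0298 to 0.0141 for Slc4a1, -4.11 to 0.12 for Tyrobp. Cd8a gave -0.35 and -0.55 with the probe set of the highest mean over 6 arrays and of the largest variance, and Slc4a1 0.018 and 0.0067 with quantile normalization and with equal medians.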
